A study of Mus musculus with 18 samples.

Results

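The IFIT family (interferon-induced proteins with tetratricopeptide repeats) was followed across 2 RNA-seq experiments on mouse adipocytes with altered IRF3 activity. The members were chosen by name as the 6 mouse genes Ifit1, Ifit1bl1, Ifit1bl2, Ifit2, Ifit3 and Ifit3b, out of 33440 genes in the quantification tables. All 6 had enough reads to be tested in both experiments, among 16105 genes tested in SVF-derived adipocytes and 13624 genes tested in TRAP RNA.

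IFIT proteins are cytoplasmic RNA-binding proteins that are nearly silent in resting cells and among the most strongly induced products of the interferon response. Viral nucleic acid is detected by sensors such as RIG-I and MDA5, whose adaptors activate the kinase TBK1 and through it IRF3. Active IRF3 binds response elements in IFIT promoters directly, and interferons released by the cell act on the same elements through their own receptors. IFIT1 binds the cap of RNA whose first nucleotides lack ribose methylation and blocks its translation, while IFIT2 and IFIT3 form complexes with each other and with IFIT1.

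In the first experiment, stromal vascular fraction (SVF) cells of inguinal fat from IRF3-2D mice, which carry a constitutively active Irf3 allele that stays silent until Cre acts, were differentiated into adipocytes. On day 6 the WT cultures (3 libraries) received AAV-GFP and the FI3OE cultures (3 libraries) AAV-GFP-Cre, and all were harvested on day 8. Both groups therefore held the allele and the virus, and FI3OE cells differed from WT cells by Cre itself as well as by the active allele. In the second experiment, C57BL/6 mice were fed a high-fat diet (HFD) for 8 weeks at thermoneutrality, and translating ribosome affinity purification (TRAP) was used to pull down GFP-tagged ribosomes of adipocytes from frozen epididymal fat (eWAT) of FI3KO-Ad-NuTRAP (FI3KO, 6 libraries) and Ad-NuTRAP (WT, 6 libraries) mice. The study lists Adipoq-Cre as its adipocyte driver, which both TRAP groups need for the tag, and the labels of these mice give neither age nor sex. The labels call the libraries biological replicates but do not say that each came from a separate animal or culture, so that p-values measure the spread between these libraries, which may in part be technical.

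Each library held between 21541334 and 40490283 estimated reads. Adipoq and Plin1, which define adipocytes, were abundant in every library. Adipoq lay at 741 to 1039 CPM (counts scaled to the library total) in SVF-derived adipocytes and at 1590.1 to 3880.3 CPM in TRAP RNA. The 18 macrophage markers summed to 2588 to 2765 CPM in WT and 2546 to 2617 CPM in FI3OE SVF-derived adipocytes, and to 44.0 to 114 CPM in WT and 18 to 52.6 CPM in FI3KO TRAP RNA. Replicates 1 and 2 of the TRAP groups stood apart from replicates 3 to 6, and the labels name no batch. In WT, Adipoq was at 3221 and 3198 CPM in replicates 1 and 2 and between 1590.1 and 1935 CPM in replicates 3 to 6. In FI3KO it was at 2208 and 2749.8 CPM in replicates 1 and 2, overlapping the 2682 to 3880.3 CPM of replicates 3 to 6. The macrophage markers of WT summed to 44.0 to 45.0 CPM in replicates 1 and 2 and 80.6 to 114 CPM in replicates 3 to 6, while those of FI3KO summed to 41.3 to 52.6 and 18 to 21.1 CPM. The fold changes of the IFIT genes and the main shares in TRAP RNA are therefore also given for each replicate set, while the order of levels, the correlations and single genes of the pathway and of the locus are given over all 6 replicates.

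The targeted gene differed between the groups in both experiments. Irf3 was at 92.0, 102 and 91.4 CPM in FI3OE and at 57.9, 56.8 and 56.8 CPM in WT SVF-derived adipocytes (log2 fold change 0.73, edgeR adjusted p = 3.3e-07). In TRAP RNA it ranged from 12.5 to 20 CPM in FI3KO and from 16.4 to 22.8 CPM in WT (log2 fold change -0.35, adjusted p = 0.0198). With an offset for average transcript length, which divides out a shift between long and short isoforms, the TRAP difference turned to 0.71 (adjusted p = 0.00181). An annotated Irf3 isoform, chosen after its values were seen, had 0 estimated reads in all 6 FI3KO libraries and 163.6 to 388.1 in the 6 WT libraries.

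All 6 IFIT genes lie side by side on mouse chromosome 19, at chr19:34550694-34650009 in GRCm38, a stretch of 99 kb in which no other gene of the files starts. From left to right the GENCODE annotation places Ifit2 (ENSMUSG00000045932) at 34550694 to 34576419, Ifit3 (ENSMUSG00000074896) at 34583531 to 34588731, Ifit1bl1 (ENSMUSG00000079339) at 34592891 to 34601956, Ifit3b (ENSMUSG00000062488) at 34607970 to 34613401, Ifit1bl2 (ENSMUSG00000067297) at 34617049 to 34640743 and Ifit1 (ENSMUSG00000034459) at 34640871 to 34650009. Ifit1bl1 and Ifit1bl2 are on the minus strand and the other genes on the plus strand. All 6 are protein coding, and the reads came from 8 annotated transcripts.

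The promoters are shown because both IRF3 and the interferon-activated factors act on the element searched for in them. Windows from 250 bases before to 50 bases after each RefSeq start (GRCm38.p6) were searched on both strands for the core of the interferon-stimulated response element, spelled GAAA, any 2 bases, GAAA. Capitals mark the matches, all of which lie on the strand opposite to the printed one and so read TTTC, 2 bases, TTTC, and positions are counted from the start to the first base of a match as printed. The first set shows the promoters with 2 matches, for Ifit1 (chr19:34640639-34640938, plus strand, positions -104 and -85), Ifit3 (chr19:34583279-34583578, plus strand, -156 and -122) and Ifit3b (chr19:34607707-34608006, plus strand, -188 and -154).
Ifit1: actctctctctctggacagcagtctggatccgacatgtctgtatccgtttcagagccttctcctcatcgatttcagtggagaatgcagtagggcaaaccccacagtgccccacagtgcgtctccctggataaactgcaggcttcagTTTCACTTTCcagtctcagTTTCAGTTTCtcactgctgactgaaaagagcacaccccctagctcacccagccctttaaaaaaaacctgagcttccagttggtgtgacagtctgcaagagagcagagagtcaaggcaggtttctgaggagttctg
Ifit3: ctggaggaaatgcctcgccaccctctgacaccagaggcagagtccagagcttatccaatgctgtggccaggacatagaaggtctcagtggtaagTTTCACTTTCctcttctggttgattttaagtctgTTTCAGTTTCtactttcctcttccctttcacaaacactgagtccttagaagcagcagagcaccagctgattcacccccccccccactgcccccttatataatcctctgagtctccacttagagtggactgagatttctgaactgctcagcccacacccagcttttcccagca
Ifit3b: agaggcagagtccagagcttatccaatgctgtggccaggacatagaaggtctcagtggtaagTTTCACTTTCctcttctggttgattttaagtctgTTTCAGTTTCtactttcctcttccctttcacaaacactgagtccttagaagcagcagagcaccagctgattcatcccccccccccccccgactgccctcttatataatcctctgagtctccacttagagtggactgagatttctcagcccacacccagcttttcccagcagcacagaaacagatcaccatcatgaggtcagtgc
Ifit1bl2 starts head to head with Ifit1, and its window at chr19:34640694-34640993 holds the same 2 matches on the other strand, at -70 and -51. The second set shows the promoters with fewer matches, Ifit1bl1 with 1 (chr19:34601919-34602218, minus strand, -104) and Ifit2 with none of these letters (chr19:34550444-34550743, plus strand).
Ifit1bl1: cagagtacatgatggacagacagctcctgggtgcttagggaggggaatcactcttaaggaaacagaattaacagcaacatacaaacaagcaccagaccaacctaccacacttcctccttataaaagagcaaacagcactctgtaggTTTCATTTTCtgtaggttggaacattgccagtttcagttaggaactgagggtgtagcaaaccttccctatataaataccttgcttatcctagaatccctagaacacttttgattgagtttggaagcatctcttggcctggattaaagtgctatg
Ifit2: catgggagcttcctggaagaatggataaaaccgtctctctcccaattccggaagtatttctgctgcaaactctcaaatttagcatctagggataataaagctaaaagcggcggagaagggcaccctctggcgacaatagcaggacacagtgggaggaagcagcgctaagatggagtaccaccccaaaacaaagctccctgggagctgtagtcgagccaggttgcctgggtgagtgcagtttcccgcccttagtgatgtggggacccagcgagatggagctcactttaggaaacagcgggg
A match was found for 5 of the 6 genes and in 6 of their 9 windows. Of all 32817 windows, 3.43% held a match and 0.222% held more than 1, and of 45 genes of the interferon induction pathway with a window 13 (28.9%) held one. The second window of Ifit2 and that of Ifit1bl2 further inside the gene held none. A match describes the letters in the window and does not show binding, and no match says only that these letters are not in that window.

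The members are unevenly related, which bears on how well reads could be told apart. The coding sequences of Ifit3 and Ifit3b are identical at 1201 of 1212 positions (99.1%), and their promoter windows align with 258 identical bases, 2 mismatches and 14 gaps. Ifit1bl1 and Ifit1bl2 share 87.5% of aligned coding positions with each other and 74.1% and 73.9% with Ifit1. All other pairs share between 51.8% and 56.4%. Of all stretches of 31 bases in the Ifit3 transcript, 61.8% also occur in Ifit3b, against 19.3% shared with any other gene for Ifit1bl1, 17.3% for Ifit1bl2, 10.8% for Ifit1 and 0% for Ifit2. Reads from the shared stretches are divided between Ifit3 and Ifit3b by the quantifier's model, and how far this decides their split was not tested. The sum of both genes is therefore given beside their fold changes and family shares.

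The first comparison asked which genes respond when IRF3 is made constitutively active in adipocytes. All 6 IFIT genes rose in FI3OE, by 2.67-fold to 5.47-fold, and for each of them the lowest FI3OE library lay above the highest WT library. Among all genes tested, 20.2% rose by the same test, 1.99% rose by the stricter rule that also asks for a log2 fold change of at least 1, and 25.7% had their FI3OE libraries entirely above those of WT. All 6 members met the stricter rule. Their median log2 fold change was 2.03, against -0.005 over all genes tested.

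Ifit3, which joins IFIT1 and IFIT2 in complexes, was at 819.9, 881 and 719 CPM in FI3OE and at 162, 152 and 163 CPM in WT. The lowest FI3OE library thus held over 4 times as much as the highest WT library. The mean went from 159 ± 5.76 to 807 ± 81.9 CPM (SD, 3 libraries each), and the log2 fold change was 2.34 with a standard error of 0.0665 (edgeR adjusted p = 1.08e-09). Its near-copy Ifit3b was at 189, 199.9 and 158 CPM in FI3OE and at 32.9, 31.9 and 34.9 CPM in WT, and had the steepest rise of the family, 2.45 on the log2 scale (standard error 0.0809, adjusted p = 2.73e-09). When the reads of both copies were summed, the log2 fold change came to 2.36 (standard error 0.0677, adjusted p = 1.09e-09). This sum does not depend on how reads were split between the copies, and the part of the split in the rise of each copy was not tested. By size of rise Ifit3b was number 20 and Ifit3 number 24 of 16105 genes.

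Ifit1, the cap-binding member, had the most reads of the family in these cultures, at 940.2, 972 and 908 CPM in FI3OE and at 221, 217 and 229.9 CPM in WT. The groups were narrow and far apart. The FI3OE mean of 940.1 ± 32.2 CPM was set against 223 ± 6.4 CPM in WT (SD, 3 libraries each), a 4.22-fold rise (95% interval 3.97 to 4.48, log2 fold change 2.08, adjusted p = 1.63e-10). The Ifit1-like genes Ifit1bl1 and Ifit1bl2, whose products are less studied, rose as well, on far fewer reads. Ifit1bl2 was at 10.3, 10.9 and 10.1 CPM in FI3OE and at 2.64, 2.89 and 2.41 CPM in WT (log2 fold change 1.98, standard error 0.113, adjusted p = 1.33e-07). Its rise was close in size to that of Ifit1, whose promoter window overlaps its own. Ifit1bl1 was at 4.99, 4.00 and 3.71 CPM in FI3OE and at 1.37, 1.68 and 1.69 CPM in WT, the smallest rise of the family (log2 fold change 1.42, standard error 0.178, adjusted p = 7.77e-05). These values rest on 33 to 136 reads a library, and Ifit1bl1 was the only member that missed the threshold when the rise had to exceed 1 on the log2 scale (adjusted p = 0.348 in edgeR's glmTreat).

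Ifit2, an RNA-binding member known for a role in cell death, was at 233, 239.9 and 204 CPM in FI3OE and at 74.0, 64.3 and 76.9 CPM in WT. It rose 3.14-fold (95% interval 2.81 to 3.51, log2 fold change 1.65, standard error 0.0726, adjusted p = 1.69e-08), less than Ifit1, Ifit3 and Ifit3b. The exact permutation test on log2 CPM gave p = 0.1 for each of the 6 genes, the smallest p that 3 libraries against 3 can give.

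**Figure D1:**
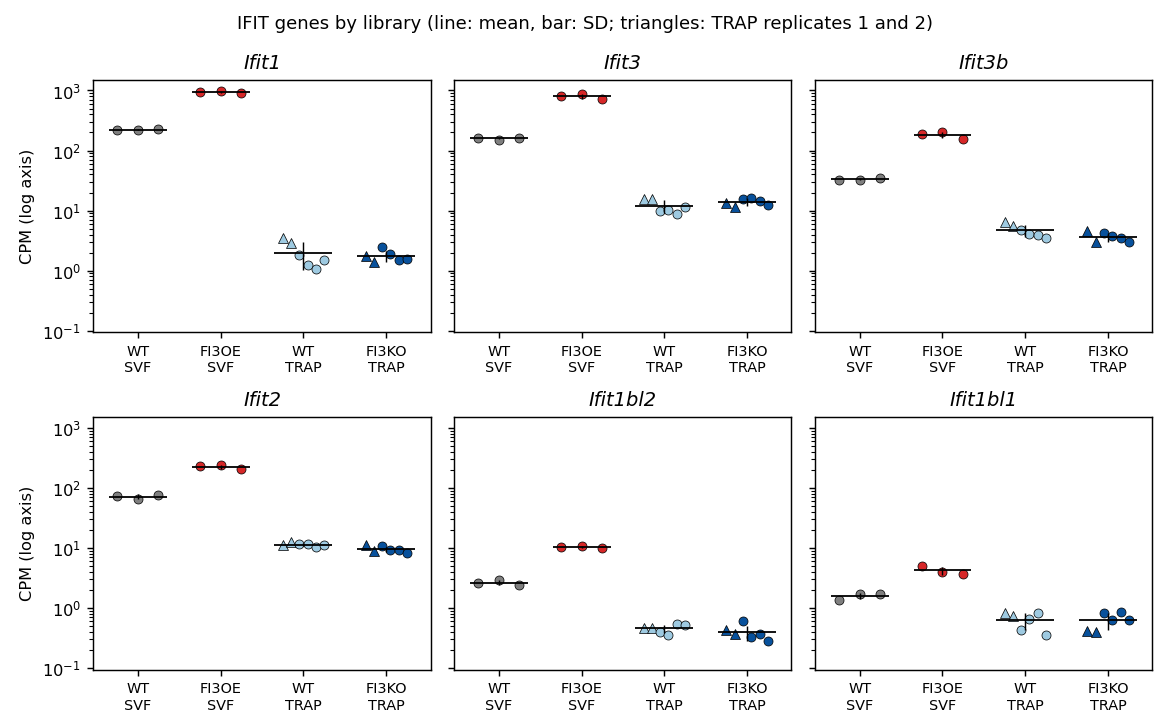
Level of each IFIT gene in CPM (log axis) in the 18 libraries by group, with horizontal lines at the group means and bars of 1 SD; triangles are TRAP replicates 1 and 2. In SVF-derived adipocytes every FI3OE point lies above every WT point in all 6 panels, and the TRAP points of FI3KO and WT overlap in all 6.

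How evenly the members rose was described by their ratios. Within each library the log2 ratio of every pair of members was formed, and for 12 of the 15 pairs the 3 FI3OE ratios lay entirely above or below the 3 WT ratios (exact permutation p = 0.1 for each, the smallest possible, so that no pair could pass a threshold of 0.05). The 15 ratios come from 6 genes and are not independent, and the share of all gene pairs whose ratios separate so was not determined. The order by fold was Ifit3b, Ifit3, Ifit1, Ifit1bl2, Ifit2 and Ifit1bl1. Per length (TPM, which is scaled to both transcript length and library total), the family total was 396 ± 13.3 in WT and 1761 ± 116 in FI3OE. Ifit3 made up 48.9% of that total in FI3OE and 44.4% in WT, Ifit3b 8.79% and 7.39%, Ifit1 37.1% and 40.7%, and Ifit2 4.78% and 6.95%. For these 4 genes and Ifit1bl1 (0.182% and 0.316%) the shares of the groups did not overlap (exact permutation p = 0.1 for each). Ifit3 and Ifit3b together made up 57.7% in FI3OE and 51.8% in WT, also without overlap, and the 6 shares are not independent since they add up to the whole.

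Markers of other cells were present in these cultures. Of the 18 macrophage markers 5 were higher and 3 lower in FI3OE, near the shares of all genes (20.2% higher and 16.8% lower). The sums of the 18 overlapped (2546 to 2617 CPM in FI3OE, 2588 to 2765 CPM in WT), and Adgre1 was at 224 to 229.7 CPM in FI3OE and 222 to 241 CPM in WT. Of the 10 adipocyte markers 2 were higher and 4 lower in FI3OE, with sums of 5781 to 6061 CPM in FI3OE and 5543 to 5666 CPM in WT. The 6 adipose progenitor markers summed to 2203 to 2315 CPM in FI3OE and 1202 to 1249.7 CPM in WT, of which Ly6a alone, which interferon is also known to induce, went from 388 to 1383 CPM. The part of other cells in the IFIT result was not tested, and in bulk RNA more cells of a type and more RNA per cell cannot be told apart.

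**Figure D2:**
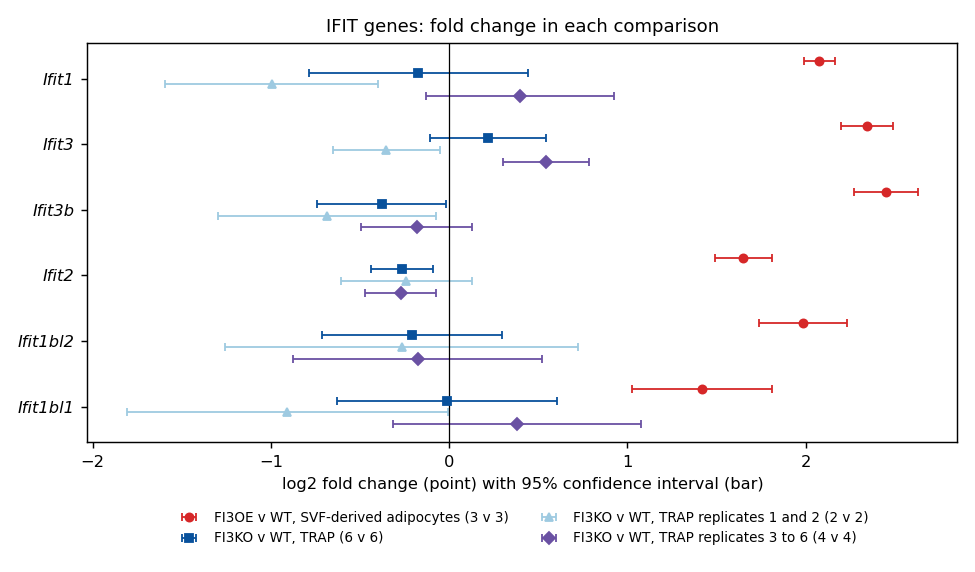
Log2 fold change (points) with 95% confidence interval (bars) of each IFIT gene in FI3OE v WT SVF-derived adipocytes, in FI3KO v WT TRAP RNA, and in TRAP replicates 1 and 2 and replicates 3 to 6 alone. The SVF-derived adipocyte values lie between 1.42 and 2.45 with no interval near 0, and the TRAP values with all replicates lie between -0.38 and 0.22.

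The second comparison asked how the family is expressed when adipocytes of HFD-fed mice lack Irf3. Ifit2 fell slightly in FI3KO, and none of the other 5 members passed the test. No absolute log2 fold change exceeded 0.38, so that no member met the stricter rule, which 6.61% of all genes met in either direction. Among all genes tested 18.3% fell and 19.1% rose, and 16.0% had groups that did not overlap in either direction, so that 1 fall in 6 members without separation of the groups is near the background. The median log2 fold change of the members was -0.19, against 0.016 over all genes.

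Ifit2 lay between 8.22 and 11.0 CPM in FI3KO (median 9.15) and between 10.5 and 12.4 CPM in WT (median 11.4). Of the FI3KO libraries 2 reached into the WT range. The log2 fold change was -0.26 with a standard error of 0.081 (edgeR adjusted p = 0.0224), and permuting the library labels (exact, two-sided, on log2 CPM) gave p = 0.00866. The adjusted p was 0.064 without the filter on low counts and 0.054 with a term for replicate number, although equal numbers did not pair the libraries. Leaving out any 1 library kept it at 0.0481 or less.

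Ifit3 lay between 11.4 and 16.5 CPM in FI3KO (median 13.9) and between 8.85 and 15.9 CPM in WT (median 11.0), with a log2 fold change of 0.22 (adjusted p = 0.275). Ifit3b lay between 2.95 and 4.63 CPM in FI3KO (median 3.58) and between 3.53 and 6.51 CPM in WT (median 4.4), with a log2 fold change of -0.38 (95% interval -0.74 to -0.015, adjusted p = 0.0938). The near-copies thus had values of opposite sign, neither past the test. Summed, their reads differed by 0.07 on the log2 scale (standard error 0.143, adjusted p = 0.712).

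Ifit1 lay between 1.4 and 2.47 CPM in FI3KO (median 1.67) and between 1.05 and 3.49 CPM in WT (median 1.67), with a log2 fold change of -0.17 (95% interval -0.79 to 0.44, adjusted p = 0.665). Ifit1bl1 lay between 0.399 and 0.843 CPM in FI3KO and between 0.356 and 0.837 CPM in WT (log2 fold change -0.01, adjusted p = 0.975). Ifit1bl2 lay between 0.278 and 0.597 CPM in FI3KO and between 0.351 and 0.547 CPM in WT (log2 fold change -0.21, adjusted p = 0.509). None of the 3 genes separated the genotypes. A library held 27 to 107 reads of Ifit1, 10 to 34 of Ifit1bl1 and 9 to 18 of Ifit1bl2. The 95% interval of the ratio of FI3KO to WT ran from 0.580 to 1.36 for Ifit1, from 0.646 to 1.52 for Ifit1bl1 and from 0.610 to 1.23 for Ifit1bl2.

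The replicate sets gave different pictures. In replicates 1 and 2 both FI3KO libraries lay below both WT libraries for all 6 members, a pattern that 31.2% of all genes had. No member passed edgeR's test there (3.56% of all genes did in either direction), although 4 of the 6 had a 95% interval below 0 before adjustment, and 2 libraries against 2 cannot give an exact p below 0.333. Ifit1 was at 1.76 and 1.4 CPM in FI3KO and at 3.49 and 2.84 CPM in WT (log2 fold change -0.99, adjusted p = 0.0785), the largest difference of the set. Ifit1bl1 followed with -0.91, Ifit3b with -0.68 and Ifit3 with -0.35, and the median of the members was -0.52.

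In replicates 3 to 6, Ifit3 rose in FI3KO, at 15.9, 16.5, 14.6 and 12.5 CPM against 9.99, 10.3, 8.85 and 11.6 CPM in WT. All 4 FI3KO libraries lay above all 4 WT libraries, as did those of 23.7% of all genes (log2 fold change 0.55, standard error 0.108, adjusted p = 0.00196, exact permutation p = 0.0286, the smallest possible). With the reads of Ifit3b added the log2 fold change was 0.37 (adjusted p = 0.00744). Ifit2 fell, at 10.6, 9.19, 9.12 and 8.22 CPM against 11.5, 11.8, 10.5 and 11.0 CPM (log2 fold change -0.27, adjusted p = 0.0286), with overlapping groups and an exact permutation p of 0.0571. The call rate here was high, at 50.6% of all genes in either direction, so that 2 of 6 members is below it. Ifit1 had a log2 fold change of 0.40 (adjusted p = 0.188), Ifit1bl1 of 0.38, and both Ifit3b and Ifit1bl2 of -0.18, without passing the test.

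The replicate sets were chosen because these same libraries stood apart in expression. The p-values of a contrast between them may therefore be too small and serve as description only. The difference between the sets was tested as an interaction of genotype and replicate set, which 26.5% of all genes passed. It passed for Ifit3, whose FI3KO effect was higher by 0.90 on the log2 scale in replicates 3 to 6 (standard error 0.181, edgeR adjusted p = 0.00351), and for Ifit1, higher by 1.39 (standard error 0.38, adjusted p = 0.0186). The call for Ifit1 was lost without FI3KO replicate 2 (1.23, adjusted p = 0.0712), without WT replicate 1 (1.25, adjusted p = 0.0822), and with WT replicates 1 and 2 taken as 1 library (1.4, adjusted p = 0.0598). That for Ifit3 held in all 12 fits that left out 1 library, and the sum of Ifit3 and Ifit3b gave 0.81 (adjusted p = 0.00451), with a log2 fold change of -0.44 in replicates 1 and 2 (adjusted p = 0.112). With 2 of 6 members past the test, the family was near the share of all genes. The interaction was 1.29 for Ifit1bl1 (adjusted p = 0.0798) and 0.51 for Ifit3b (adjusted p = 0.192). That of Ifit1bl1 passed without WT replicate 5 (1.52, adjusted p = 0.0389), and that of Ifit3b passed without FI3KO replicate 1 (0.87, adjusted p = 0.0455). For Ifit2 the difference between the sets was -0.03 (adjusted p = 0.923), and for Ifit1bl2 it was 0.09 (adjusted p = 0.91).

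Macrophage and endothelial markers moved with the same split, while the mean sum of the adipocyte markers, Lep included, was lower in FI3KO in both sets. Of 14 macrophage markers tested in TRAP RNA 12 were lower and 1 higher in FI3KO, where 18.3% of all genes were lower and 19.1% higher. Their median log2 fold change was -1.62. All 18 markers summed to 41.3 to 52.6 CPM in FI3KO and 44.0 to 45.0 CPM in WT in replicates 1 and 2, and 18 to 21.1 CPM and 80.6 to 114 CPM in replicates 3 to 6. The defining markers Adgre1 and Csf1r were at 0 in no library. Of the 10 adipocyte markers 3 rose (Plin1, Fabp4 and Cebpa) and Lep alone fell, from 9389 to 3031 CPM. Lep had the highest mean of the 10 in WT. The sum of all 10 was 24088 to 27586 CPM in FI3KO and 27534 to 31564 CPM in WT. Its mean went from 29647 CPM in WT to 26008 CPM in FI3KO, a smaller fall than that of Lep alone. Of the 6 adipose progenitor markers Dcn rose, from 27 to 69.5 CPM, and Ly6a (5.54 to 3.02 CPM) and Dpp4 (4.34 to 1.53 CPM) fell, while the sum of all 6 was 59.5 to 91.5 CPM in FI3KO and 35.8 to 53.8 CPM in WT. The 6 endothelial markers summed to 53.2 to 94.5 CPM in FI3KO and 29.3 to 33 CPM in WT in replicates 1 and 2, and to 19.6 to 29.9 and 22.6 to 46.9 CPM in replicates 3 to 6. Over all replicates the 6 mesothelial markers summed to 2.85 to 13.5 and 3.17 to 24.5 CPM, and the 6 lymphocyte markers to at most 0.536 CPM. The part of these markers in the IFIT values was not tested.

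**Figure D3:**
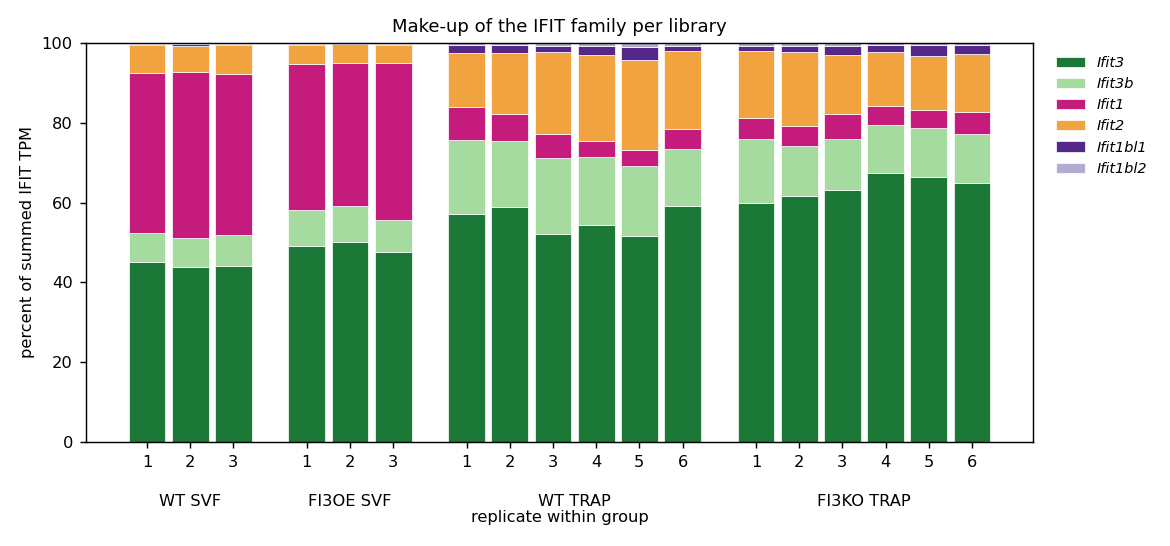
Share of each IFIT gene in the summed TPM of the family (percent, stacked to 100) in each of the 18 libraries. Ifit1 makes up 39.9% to 41.6% in WT SVF-derived adipocytes and 3.89% to 8.13% in WT TRAP RNA, and Ifit3 is the largest share in every library.

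The make-up of the family in TRAP RNA was compared by the shares of its members and by their ratios. All 15 ratios between members overlapped between the genotypes. The lowest exact permutation p-values were 0.00433 for Ifit3 to Ifit3b (log2 difference 0.604) and 0.013 for Ifit2 to Ifit3 (-0.509). With Benjamini-Hochberg adjustment over the 15 pairs they became 0.0649 and 0.0975. Ifit3 made up 59.8% to 67.5% of the family's TPM in FI3KO (mean 63.9 ± 2.93%, SD, n = 6) and 51.7% to 59.2% in WT (mean 55.6 ± 3.36%). All 6 FI3KO libraries lay above all 6 WT libraries (exact permutation p = 0.00216, the smallest that 6 against 6 can give). It was 1 of 6 shares compared, with p-values not adjusted for their number. In replicates 1 and 2 the Ifit3 share was 59.8% and 61.6% in FI3KO and 57.2% and 59% in WT, and in replicates 3 to 6 it was 63.1% to 67.5% and 51.7% to 59.2%. The near-copies together showed no such separation. Ifit3 and Ifit3b made up 74.2% to 79.3% in FI3KO and 69.2% to 75.7% in WT, which overlap (exact permutation p = 0.0108). In replicates 1 and 2 the mean of this sum was 75.1% in FI3KO and 75.5% in WT, and in replicates 3 to 6 it was 77.7% and 71.2% (exact permutation p = 0.0286, the smallest possible). Ifit3b made up 12.9% in FI3KO and 17.1% in WT (exact permutation p = 0.00433), and Ifit2 15.3% and 18.8% (exact permutation p = 0.0649). The Ifit2 share was 16.8% and 18.5% in FI3KO against 13.5% and 15.5% in WT in replicates 1 and 2, and 13.4% to 14.8% against 19.5% to 22.5% in replicates 3 to 6, so that its direction turned between the sets. The Ifit3b share was 16.1% and 12.6% against 18.5% and 16.3% in replicates 1 and 2 and 11.8% to 12.7% against 14.1% to 19.1% in replicates 3 to 6. The shares of Ifit1, Ifit1bl1 and Ifit1bl2 had exact p-values of 0.219 or more.

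The split of reads within the pair of near-copies restates the shares and the ratio of Ifit3 and Ifit3b. It was chosen after its values were seen, so that it is given with no further test. Ifit3b took 26.0%, 20.6%, 20.8%, 18.4%, 19% and 19.4% of the reads of Ifit3 and Ifit3b in FI3KO replicates 1 to 6 and 29.3%, 26.2%, 31.9%, 28.5%, 30.8% and 23.2% in WT replicates 1 to 6. FI3KO replicate 1 overlapped the WT range through WT replicate 6, and the other 5 FI3KO libraries lay below it. The mean was 20.7 ± 2.76% in FI3KO and 28.3 ± 3.17% in WT (SD, n = 6 each), a difference of -7.66 percentage points. In replicates 3 to 6 the difference was -9.23 points and in replicates 1 and 2 it was -4.52 points. In SVF-derived adipocytes the share was 18.4% in FI3OE and 17.3% in WT, a difference of 1.11 points. The coding sequences of Ifit3 and Ifit3b are near-identical, and the part of the quantifier in this split was not tested.

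Baseline levels of the family stood apart in the WT groups. In WT SVF-derived adipocytes the 6 genes summed to 491 ± 19.2 CPM (n = 3) and in WT TRAP RNA to 31.3 ± 5.38 CPM (SD, n = 6), a ratio of 15.7 ± 2.77, and for each member all WT SVF libraries lay above all WT TRAP libraries. The ratio of mean CPM was 112 for Ifit1, 13.2 for Ifit3, 7.02 for Ifit3b, 6.29 for Ifit2, 5.80 for Ifit1bl2 and 2.48 for Ifit1bl1. That of Ifit1 had a propagated SD of 53.9 and depends on the replicate set, since WT TRAP RNA held 3.16 CPM of Ifit1 in replicates 1 and 2 and 1.41 CPM in replicates 3 to 6 (means), against 223 CPM in WT SVF-derived adipocytes. The groups differ in genotype (silent IRF3-2D allele against Ad-NuTRAP), depot, culture, virus, diet and RNA isolation at once, which cannot be told apart. The macrophage markers were at 2588 to 2765 CPM in WT SVF-derived adipocytes and 44.0 to 114 CPM in WT TRAP RNA. No test was made.

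Per length, the order of the levels also differed. In WT SVF-derived adipocytes Ifit3 was at 176 ± 7.83 TPM and Ifit1 at 161 ± 2.66 TPM (SD, n = 3). They were followed by Ifit3b at 29.3 and Ifit2 at 27.6 TPM, whose ranges overlapped although Ifit3b was higher in all 3 libraries. Ifit1bl1 at 1.25 and Ifit1bl2 at 1.16 TPM also overlapped. In FI3OE Ifit3 reached 862 ± 78.7 TPM and Ifit1 653 ± 12.8 TPM, and every gene was apart from the next, with Ifit3b at 155, Ifit2 at 84.3, Ifit1bl2 at 4.44 and Ifit1bl1 at 3.20 TPM. In WT TRAP RNA Ifit3 led with 14.5 ± 3.41 TPM (n = 6). There Ifit2 at 4.72 and Ifit3b at 4.42 TPM overlapped, and Ifit1 came after them with 1.53 ± 0.713 TPM. Ifit1bl1 followed at 0.522 and Ifit1bl2 at 0.205 TPM. The order of the means and the overlap were the same in FI3KO, from Ifit3 at 16.1 ± 2.78 TPM to Ifit1bl2 at 0.172 TPM. Within libraries, Ifit2 lay above Ifit3b in 4 of 6 WT and in all 6 FI3KO TRAP libraries.

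The genes that act before and beside the IFIT genes were read from a list of 55 genes of the interferon induction pathway, of which 53 were in the files. In FI3OE 33 of 47 genes tested rose (20.2% of all genes did) and 2 fell (16.8% of all genes did). Among the 47, 18 rose past the stricter rule, as 1.99% of all genes did. The median log2 fold change of the 47 was 0.64, against -0.005 over all genes. In FI3KO TRAP RNA 4 of 45 rose and 13 fell, where 19.1% of all genes rose and 18.3% fell, with a median of -0.19 against 0.016. There 2 genes of the list met the stricter rule over all replicates (6.61% of all genes did), 8 in replicates 3 to 6 (1868 of all 13692 genes tested did) and 0 in replicates 1 and 2 (191 of 14040). The macrophage markers, with a median of -1.62, moved in the same comparison, and their part in these values was not tested. The genes named below are Irf3 and up to 3 genes of each role with the highest level in WT, and any other was chosen after its values were seen.

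Among the sensors, 5 of 6 rose in FI3OE, where 20.2% of all genes rose. They included Ifih1 (MDA5), which went from 152 to 308 CPM (log2 fold change 1.02), and Ddx58 (RIG-I), from 165 to 327 CPM (0.98). The exception was Cgas, the DNA sensor, at 4.11 CPM in FI3OE and 4.70 CPM in WT (adjusted p = 0.297). The adaptors and kinases between the sensors and IRF3 changed little, with Tmem173 (STING, 0.43) and Ikbke (0.17) rising of 6 tested, and Tbk1 at 55.3 CPM in FI3OE and 51.5 CPM in WT did not pass (adjusted p = 0.071). All 6 transcription factors rose, including Irf3, the gene that was itself altered. Irf7, a partner of IRF3 that is itself induced by interferon, went from 247 ± 12.2 to 580 ± 29.7 CPM (log2 fold change 1.23), and Stat2 from 142 to 254 CPM (0.83).

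The interferon genes of the list gave almost no reads in either experiment, and other interferon genes are not part of the list. None of 6 ligand genes had enough reads to be tested, and Ifnb1, the interferon that IRF3 induces first, had a mean of 0.0141 CPM in FI3OE and 0 in WT SVF-derived adipocytes. Of the receptors and their kinases, Ifnar2 rose (log2 fold change 0.36), while Ifnar1 (-0.23) and Ifngr1 (-0.17) fell slightly. Usp18, which dampens the interferon receptor, went from 51.3 to 136 CPM (1.41). Of the 4 genes of cap methylation, the process that marks host RNA and so decides what IFIT1 can bind, only Cmtr1 passed the test (97.7 to 118 CPM, log2 fold change 0.27). All 16 other effectors tested rose, 14 of them past the stricter rule (20.2% and 1.99% of all genes did). Rsad2 (viperin), an antiviral enzyme, went from 218 to 853 CPM (log2 fold change 1.97) and Oasl2, of the oligoadenylate synthetase family, from 173 to 482 CPM (1.48), in the range of the IFIT genes. Trim25, which activates RIG-I, went from 192 to 262 CPM (0.45), and it and Eif2ak2 (0.58) were the 2 effectors below the stricter rule.

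In TRAP RNA the genes that fell in FI3KO were spread over several roles. Of the receptors and their kinases 5 of 6 fell, including Jak1 (327 to 267 CPM, log2 fold change -0.29), Ifngr1 (201 to 156 CPM, -0.37) and Ifnar1 (76.8 to 61.8 CPM, -0.31). Of the sensors Tlr3 alone fell (21.2 to 14.4 CPM, -0.55), and Ddx58 and Ifih1, at 29.9 and 28.7 CPM in FI3KO and 31.4 and 29.8 CPM in WT, did not pass. Of the adaptors and kinases Traf3 (-0.38), Tbk1 (-0.30) and Ikbke (-0.74) fell. Of the transcription factors Irf3 fell, as given above, and Irf1 rose from 18.9 to 21.8 CPM (0.21). Of the 4 genes of cap methylation Ramac, which activates the cap methyltransferase RNMT, rose from 33.6 to 40.4 CPM (0.27).

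Of the other effectors 4 of 14 tested passed in TRAP RNA, near the share of all genes that did (19.1% higher and 18.3% lower). In FI3KO 3 fell, namely Eif2ak2 (PKR, which halts translation on double-stranded RNA, 37.4 to 30.8 CPM, log2 fold change -0.28), Ddx60 (3.31 to 2.17 CPM, -0.62) and Zbp1, a nucleic acid sensor of cell death (3.50 to 1.52 CPM, -1.19). Trim25 rose (17.8 to 26.7 CPM, 0.59), and the other 10 did not pass. Rsad2, among the strongest responders in FI3OE, was at 1.57 CPM in FI3KO and 1.79 CPM in WT (adjusted p = 0.59), and Isg15, a ubiquitin-like modifier, at 0.604 and 0.829 CPM (adjusted p = 0.149). Of the feedback inhibitors Socs1 rose (0.599 to 1.35 CPM, 1.15), and Usp18 was at 1.45 CPM in FI3KO and 1.51 CPM in WT (adjusted p = 0.848).

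**Figure D4:**
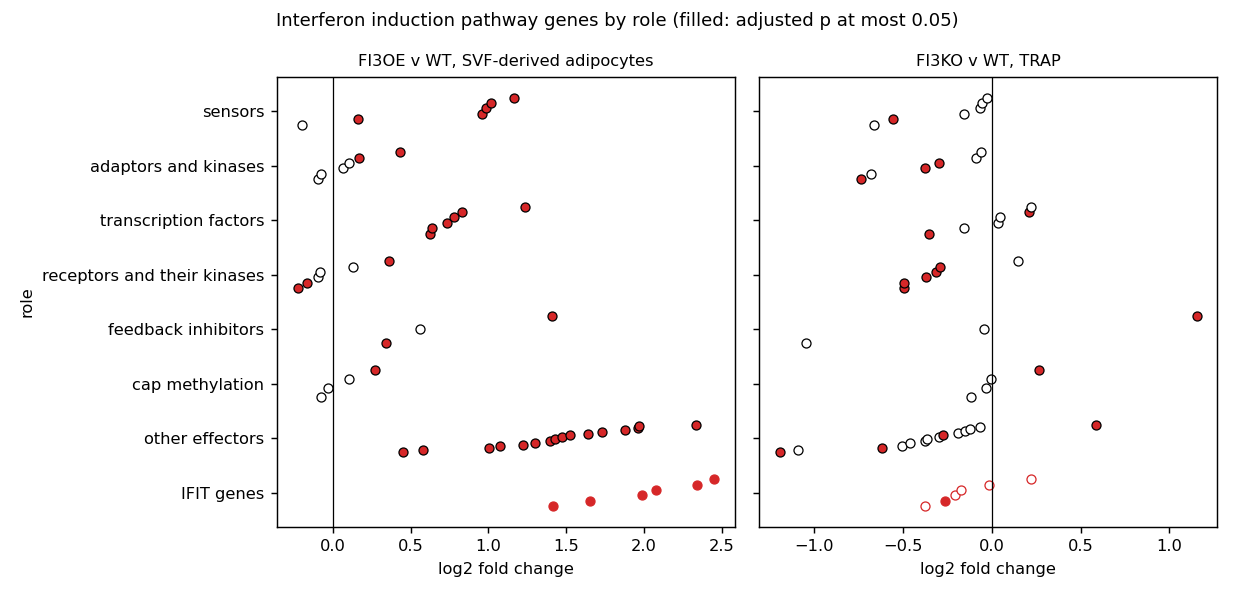
Log2 fold change of each gene of the interferon induction pathway by role, with the IFIT genes as the last line, in FI3OE v WT SVF-derived adipocytes and FI3KO v WT TRAP RNA; filled points have an adjusted p of at most 0.05. On the left all 16 other effectors and all 6 IFIT genes are filled and to the right of 0, and on the right 1 IFIT gene, Ifit2, is filled.

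The neighbours of the cluster were compared next. Within 500 kb of its ends lie 14 other genes. In FI3OE 9 were tested and 4 passed the test, near the share of all genes (20.2% higher and 16.8% lower), and none met the stricter rule, which all 6 IFIT genes met. Fas, a death receptor and p53 target, rose (10.7 to 17.3 CPM, log2 fold change 0.70), as did Kif20b (0.51) and the lysosomal lipase Lipa (0.20), and Stambpl1 fell (-0.32). In FI3KO TRAP RNA 6 of the 7 neighbours tested passed, where 19.1% of all genes rose and 18.3% fell. Stambpl1 (-1.38), Acta2 (-1.18), Fas (-0.59) and Lipa (-0.30) fell, and Slc16a12 (0.51) and Pank1 (0.46) rose, with Stambpl1 and Acta2 past the stricter rule.

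**Figure D5:**
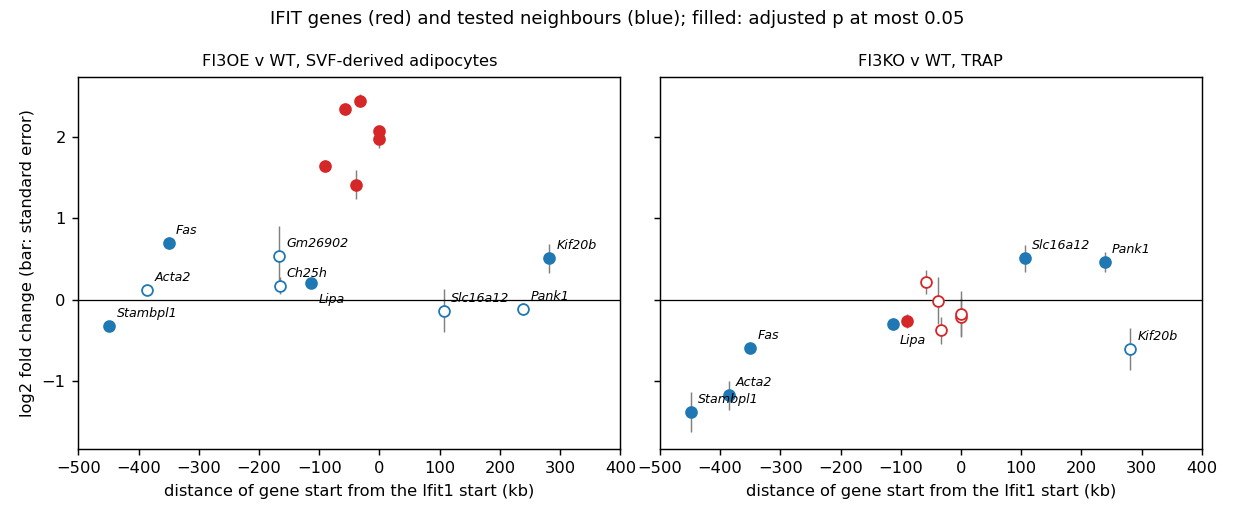
Log2 fold change (bars: standard error) of the IFIT genes (red) and of their tested neighbours (blue) against the distance of the gene start from that of Ifit1 in kb; filled points have an adjusted p of at most 0.05. In FI3OE the IFIT genes stand between 1.42 and 2.45 and their neighbours between -0.32 and 0.70, and in FI3KO the neighbours reach from -1.38 to 0.51.

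How far the members varied together within groups was described with log2 CPM centred on each group's mean. Over the 12 TRAP libraries Pearson's r was 0.875 for Ifit1 with Ifit3, 0.827 for Ifit1 with Ifit3b, 0.692 for Ifit3 with Ifit3b and 0.367 for Ifit2 with Ifit3. Over the 6 SVF libraries r was 0.97 for Ifit3 with Ifit3b and 0.895 for Ifit1 with Ifit2, while Ifit1bl1 and Ifit1bl2 had an r of -0.029 with each other. The points share libraries, depth and, for the near-copies, reads. The genes whose centred pattern was most like the mean of the members were Srbd1, Rps27l, 4930458D05Rik, Itga3 and Kif22 over the 6 SVF libraries (r from 0.992 to 0.998 among 12670 genes) and Lzts1, Wscd2, Thra, Rnf141 and Plagl1 over the 12 TRAP libraries (r from 0.922 to 0.942 among 10909 genes). None of these is an interferon-stimulated gene of the list above. With so few libraries and so many genes ranked, an r this high can arise by chance, so that the names carry no result. The mean also weights all 6 members alike, including Ifit1bl1 and Ifit1bl2 with few reads. Centring on the group mean leaves the difference between the TRAP replicate sets in these values.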

How the data were processed

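RNA was measured in 18 libraries from 4 groups. According to the study's methods and the submitters' processing notes, the authors trimmed reads with fastp and quantified transcripts with Salmon 1.4.0 on GRCm38, correcting for sequence and GC bias, from a library kit that keeps no strand. The deposited values used are the estimated counts per transcript (fractions of reads where transcripts share sequence) and the TPM, which are relative to the library total and transcript length.

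For this report, 99.3% of 118733 transcripts were assigned to genes by GENCODE annotation, and the unmatched ones held 0.375% to 1.08% of reads. Counts were summed per gene and rounded. Each experiment was fitted alone with edgeR 4.0.16 in R 4.3.3 (filterByExpr, TMM scaling, quasi-likelihood test, Benjamini-Hochberg adjustment over all genes tested). A gene passed at an adjusted p of at most 0.05, and the stricter rule also asked for a log2 fold change of 1 or more in size. Single values were compared with two-sided exact permutation tests of log2 CPM (prior count 2). On simulated counts with 200 genes changed by a log2 fold change of 1.5, the test recovered 90.5% at the depth of the SVF libraries with 17 false calls, and 89% at that of the TRAP libraries with 6 false calls. The simulation held no replicate sets and far fewer changed genes than were called here. It does not show what is recovered at smaller changes, such as those of the IFIT genes in TRAP RNA. Intervals cover the spread between libraries at this depth. Sequences came from RefSeq promoter tables for GRCm38.p6 and identities from Biopython 1.88 alignments.

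WT TRAP replicates 1 and 2 differed by 2.43 chi-square units per degree of freedom over genes, against 8.38 to 274.45 for other TRAP pairs. This exceeds counting noise, so both were kept, with their mean as 1 library as an alternative. Alternatives were DESeq2 1.42.0, other scalings and filters, a transcript length offset, pooled fits, a replicate block, replicate sets and leaving out each library. The alternatives of the interaction other than its scaling, those of the ratio of WT levels by library or replicate set, those of the Ifit3b share, and the sums of Ifit3 and Ifit3b by replicate set and as a share, were chosen after seeing the data.

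All 6 members were named. Of the pathway, named genes were Irf3 and up to 3 genes per role with the highest WT level, of the neighbours within 500 kb those that passed, and of the genes most like the family the 5 with the highest Pearson r among genes of mean log2 CPM of at least 1. The members, lists and tests were chosen with earlier results of these data known. Mx1 and Mx2 of the list were not analysed here. The values of another gene that this rule names are not reported here.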

Additional observations from a re-analysis of the deposited data

Results flagged for a closer look

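The effect of FI3KO on Ifit3 in TRAP RNA was higher by 0.90 on the log2 scale in replicates 3 to 6 than in replicates 1 and 2 (adjusted p = 0.00351 for the interaction in edgeR's quasi-likelihood test), with log2 fold changes of 0.55 and -0.35. That on Ifit1 was higher by 1.39 (adjusted p = 0.0186), with log2 fold changes of 0.40 and -0.99, and lost its call without FI3KO replicate 2, without WT replicate 1 and with WT replicates 1 and 2 merged. Of all genes 26.5% passed this test, so that 2 of 6 members is near the background. The labels give the replicate numbers no meaning beyond a name, and the sets were drawn from these same data, so that these p-values are descriptive. The share of Ifit3b in the reads of Ifit3 and Ifit3b was 26.0% in FI3KO TRAP replicate 1, which stood away from the other 5 FI3KO libraries (18.4% to 20.8%) by 0.687 of the group's range. It was the 1 outlying library found in 16 groups of values tested, where chance alone gives such a library in about 5% of groups.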

How the results depend on the processing

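In FI3OE 103 of 104 values of single IFIT genes under the alternatives kept their call, with log2 fold changes from 1.29 to 2.55, and the exception was Ifit1bl1 tested against a log2 fold change of 1. The pathway count of 18 became 35 by adjusted p alone. In TRAP RNA the family's count of 0 by the stricter rule became 1 by adjusted p alone. The pathway count of 2 there became 4 in a fit of all 18 libraries, 0 against a log2 fold change of 1, 8 in replicates 3 to 6, 0 in replicates 1 and 2, 17 by adjusted p alone and 1 to 3 when 1 library was left out (1 without WT replicate 3 or 6). The interaction count of 2 became 1 with WT replicates 1 and 2 merged and 1 to 3 when 1 library was left out. Ifit2 in TRAP RNA lost its call without a filter (adjusted p = 0.064), with the replicate block (-0.27, adjusted p = 0.054) and in replicates 1 and 2 (adjusted p = 0.322), and Ifit3b gained one in the fit of all libraries (-0.39, adjusted p = 0.0404). Some signs turned. In TRAP RNA Ifit1 was 0.40 in replicates 3 to 6, 0.0018 with the merged library and -0.30 to 0.049 with 1 library left out, Ifit3 was -0.35 in replicates 1 and 2, and Ifit1bl1 was 0.0045 with the length offset, 0.38 in replicates 3 to 6, 0.045 with the merged library and -0.14 to 0.084 with 1 library left out. Irf3 turned to 0.71 with the length offset. With 1 library left out, the interaction ran from -0.16 to 0.13 for Ifit2 and from -0.12 to 0.22 for Ifit1bl2. The WT SVF to TRAP ratio of 15.7 was 12.9 against replicates 1 and 2, and the Ifit3b share difference was -4.52 points in those replicates. The causes were not tested.

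Over all genes, 5960 calls by adjusted p in FI3OE became 3800 with the length offset, 1572 in the fit of all libraries and 175 against a log2 fold change of 1, and the 583 by the stricter rule became 342 in the fit of all libraries and 175 against a log2 fold change of 1. In TRAP RNA 5095 calls became 500 in replicates 1 and 2 and 92 against a log2 fold change of 1, and the 901 by the stricter rule became 574 with at least 10 counts in every library, 1355 in the fit of all libraries, 1868 in replicates 3 to 6, 191 in replicates 1 and 2 and 92 against a log2 fold change of 1. The 3613 interaction calls became 2107 without WT replicate 1, 2033 without WT replicate 2 and 1964 with both merged. Equal replicate numbers did not pair the libraries (correlations of deviations from -0.046 to 0.015 in SVF-derived adipocytes and from -0.293 to 0.104 in TRAP RNA), and with the replicate block the calls were 5658 and 3632. In TRAP RNA a library held 9 to 18 reads of Ifit1bl2 and 10 to 34 of Ifit1bl1, so that small differences of these genes were not detectable at this depth.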

Other observations

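The annotated transcripts of 2 members did not take reads alike. Of Ifit1bl1, the second annotated transcript was assigned all reads of FI3KO TRAP replicate 6 (19.6), WT TRAP replicate 6 (11.2) and WT SVF replicate 3 (43.0), while the first took most or all reads of the other libraries. The short second transcript of Ifit2 had at most 10.1 estimated reads in any library.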
